A study of Rattus norvegicus with 10 samples.

Results

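The resting state of distal colon epithelium was described from the RNA sequencing libraries of the 5 control rats, which are 5 of the 10 libraries of the series and were taken by their diet label alone. The animals were male Wistar Munich rats weighing 284 to 347 g, 12 in all, which had 3 days to settle before 6 of them moved to chow with 1% w/w sodium cholate while the control rats stayed on chow without it, for 10 days. Epithelium of the most distal of the colon's 3 segments came off an inverted sac during 20 min at 37 °C in calcium-free Ringer solution with EDTA, which takes up the calcium that cadherin contacts need. Each library is 1 rat, so n = 5 throughout, and the rats sequenced were those with the most concentrated RNA rather than a random draw. No test between diets was made. The labels record no genetic change.

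The colon epithelium is a single layer of columnar cells renewed from stem cells at the base of the crypts. Its absorptive cells, the colonocytes, take up sodium, chloride, water and the short-chain fatty acids made by bacteria. Its goblet cells secrete the mucus that separates bacteria from the cells, and rare enteroendocrine and tuft cells sense the contents of the lumen. Keratins give the cells their scaffold, and claudins, cadherins and desmosomes join them into a sheet.

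Levels are given as counts per base of coding sequence, scaled to 1000000 in each library. This quantity is named TPM here and allows levels of different genes to be set side by side, as far as the coding length is the right divisor. Whether the counts include untranslated regions is not stated, and with total exon length as the divisor 17 of the 25 highest nuclear genes stayed among the 25 highest. Totals were 19883925 to 35927355 counts per library, in which 14688 to 15060 of the 23422 listed genes had at least 1 count. A gene without a count may have had up to 3 in a library, which is 0.0835 to 0.151 per 1000000 counts, a floor that covers counting error only. Of all listed genes, 10515 reached 1 TPM in every rat and 7124 had no count in any of the 5.

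Rat 9 and, to a lesser degree, rat 5 stood apart from rats 1, 2 and 6. Across 9824 genes with at least 5 normalized CPM (the deposited counts scaled per 1000000 with the TMM factor), Pearson's r between libraries on the log2 scale was 0.981 to 0.984 among rats 1, 2 and 6, while it was 0.865 to 0.879 between rat 9 and those 3 rats, and 0.943 to 0.953 between rat 5 and them. These correlations are across genes, which are not independent replicates. The difference moved with gene length. Genes in the quartile with the shortest total exon length (up to 1801 bases) had a median log2 difference of 0.36 between rat 9 and the mean of the other rats, and genes in the quartile with the longest (over 4780 bases) one of -0.68. In rat 9, 1384 genes lay more than 1 log2 unit below the mean of the other rats and 129 more than 1 above. RNA quality values were not used here, and their part in this pattern was not tested. Values for each rat are therefore printed below, and the shares of Slc4a2 and Slc12a2 are repeated without rats 5 and 9.

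**Figure D1:**
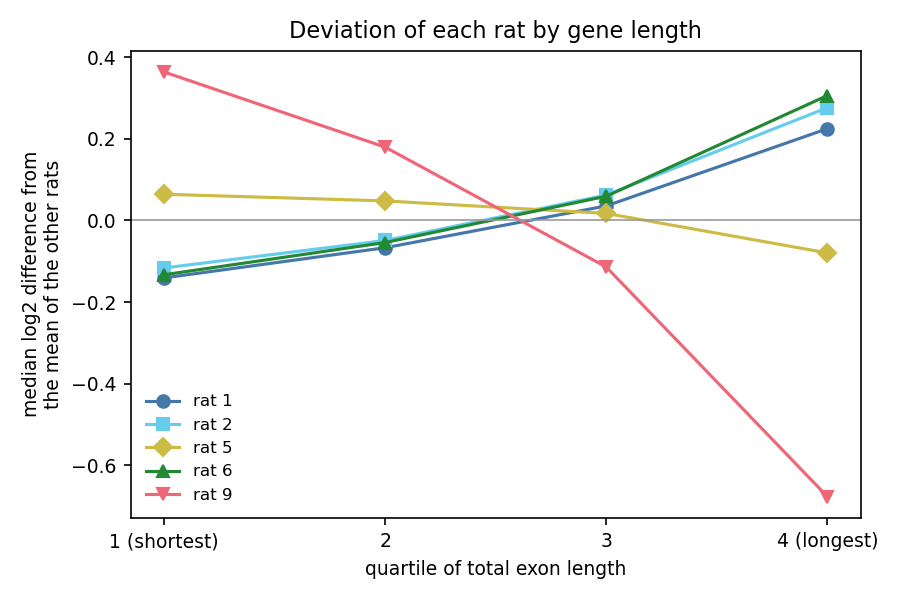
Median log2 difference of each rat's normalized CPM (pseudocount 0.5) from the mean of the other 4 rats, by quartile of total exon length, over 9824 genes. Rat 9 runs from 0.36 in the shortest quartile to -0.68 in the longest, and rats 1, 2 and 6 run the opposite way. The mean used for each of rats 1, 2 and 6 includes rat 9, so the opposite courses are not independent.

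Epithelial markers stood far above those of the non-epithelial cell types listed. The lists of differentiated colonocytes (21631 to 27934 TPM) and goblet cells (8825 to 17172 TPM), which are epithelial too, were also high. The 10 listed epithelial markers summed to 17460 to 19299 TPM in the 5 rats, led by the keratins Krt19 and Krt8, the galectin Lgals4 and the adhesion molecule Epcam (2563 ± 115 TPM, mean ± SD). The 10 fibroblast markers summed to 7.78 to 8.83 TPM, with the collagen gene Col1a2 and Lum without a count, the 10 endothelial markers to 1.24 to 5.02 TPM, and the 10 T and NK cell markers to 8.57 to 22.8 TPM. Higher sums were found for the macrophage and dendritic cell list (206 to 259 TPM, mostly Cd14), the B and plasma cell list (169.8 to 232.8 TPM, mostly Xbp1), the erythrocyte list (44.8 to 100.5 TPM) and the granulocyte and mast cell list (40.2 to 102.3 TPM). The smooth muscle list summed to 44.5 to 55.9 TPM, nearly all of it on Des (27.1 TPM) and Smtn (18.7 TPM), whereas Acta2 and Cnn1 stood at 0.012 and 0.136 TPM. Markers of squamous epithelium summed to 2.41 to 3.41 TPM, with Krt5, Krt14 and Ivl without a count. In a bulk sample, fewer cells of a type and less RNA per cell cannot be told apart.

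A small number of genes held much of the RNA. The 10 genes with the highest mean held 17.59 to 24.99% of counts in the 5 rats, and the top 100 held 35.1% ± 3.67 (SD, n = 5) of counts and 44.95% ± 2.47 of summed TPM. It took 536, 489, 399, 436 and 249 genes to reach 50% of counts in rats 1, 2, 5, 6 and 9. Rat 9 needed the fewest genes and rat 1 the most. The membership of the top was stable: 9 genes were among the top 10 by TPM in every rat and 12 in at least 1 rat, and for the top 100 these numbers were 85 and 117.

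**Figure D2:**
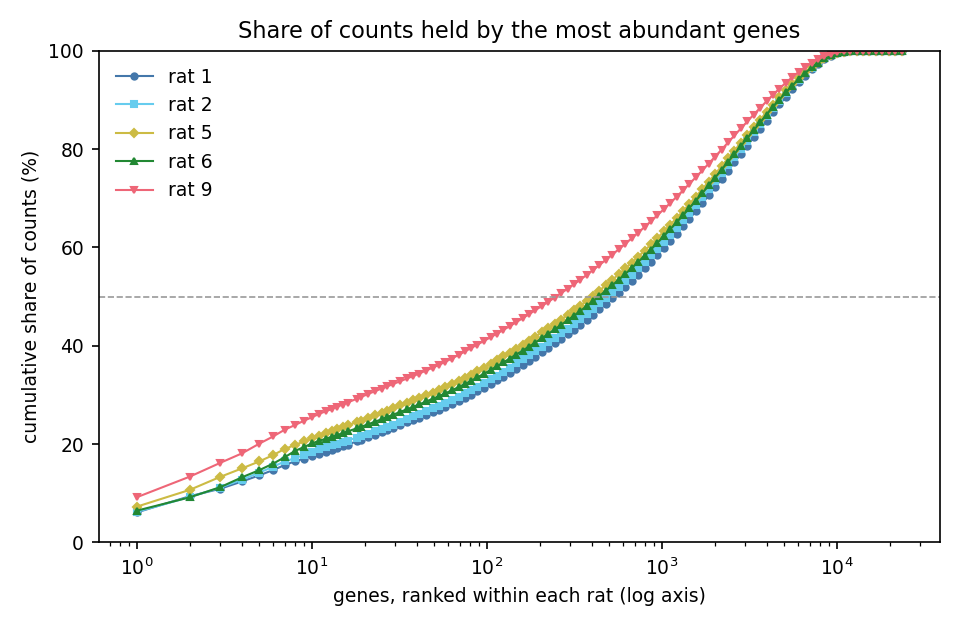
Cumulative percentage of a library's counts (vertical axis) held by its genes ranked from the most abundant (horizontal log axis), 1 line per rat. The dashed line marks 50%, which was reached with 249 genes in rat 9 and with 536 in rat 1.

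Genes of the mitochondrial genome came first. These 13 genes encode subunits of the respiratory chain and of ATP synthase. They held 15.9, 16.5, 19.7, 18.4 and 23.6% of counts in rats 1, 2, 5, 6 and 9, a mean of 18.8% ± 3.07, and 21.2% ± 2.62 of summed TPM. COX1, which encodes the catalytic subunit of cytochrome c oxidase, had the highest mean TPM of all genes and held 7.06% ± 1.28 of counts on its own. Its level was 39875, 40548, 45945, 42183 and 55214 TPM in rats 1, 2, 5, 6 and 9. In rat 1 COX3 was higher, with 42165 TPM. The other catalytic-core subunits COX3 (39717 ± 8268 TPM) and COX2 (29472 ± 8632 TPM) were among the 4 highest genes by TPM. ATP8 and ATP6 share bases on the mitochondrial genome, so counts in their overlap cannot be assigned to 1 of them with the counting rule not given. The measured levels of mitochondrial genes were far from equal: ND5 stood at 677 ± 146 TPM and ND4 at 411 ± 139 TPM, both complex I subunits, against 44753 ± 6304 TPM for COX1. ND4 overlaps ND4L and ND5 overlaps ND6, and how reads that match several places were counted was not stated. The part of this in the low values was not tested. Nuclear genes of the respiratory chain and ATP synthase, 94 in the table, together held 2.22% ± 0.153 of counts.

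Lypd8 was the most abundant nuclear gene in every rat. It encodes a GPI-anchored protein of the Ly6 family that colonocytes release into the lumen, where it binds flagellated bacteria. Its level was 16361, 21734, 16847, 19121 and 18148 TPM in rats 1, 2, 5, 6 and 9, a mean of 18442 ± 2136 TPM and 1.41% of all counts (rn6, chromosome 10, 43817773 to 43828812, plus strand). The lowest rat was 16361 and the next nuclear gene, the calcium-binding protein gene S100a6, reached 11984 in its highest rat, so the 2 ranges did not overlap. S100a6 stood at 9710, 8673, 10515, 10175 and 11984 TPM. A second gene of the Ly6 family, Ly6al, followed at 8235, 8874, 7274, 8915 and 7654 TPM.

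Genes with known roles in this tissue were found among the next in rank, of which the following are examples. Defence and mucus were represented by Agr2, the disulfide isomerase that goblet cells use to fold mucin (5817 ± 1076 TPM), Tff3, the trefoil peptide of goblet cells (3440 ± 1242 TPM), the polymeric immunoglobulin receptor Pigr (2607 ± 726 TPM) and LOC290595, named Gpr15lg in a newer gene table and encoding the ligand of the lymphocyte homing receptor GPR15 (4045 ± 366 TPM). Calcium and iron binding were represented by S100g, the vitamin D-dependent calbindin (7552 ± 3638 TPM), and the ferritin heavy chain gene Fth1 (4515 ± 845 TPM). Redox control was represented by thioredoxin, Txn1 (5594 ± 1280 TPM). The galectins Lgals3 (3784 ± 298 TPM) and Lgals4 (3456 ± 278 TPM), the hormone precursor guanylin, Guca2a (2985 ± 678 TPM), and the MHC class I light chain B2m (4594 ± 639 TPM) were also in this range. So were Phgr1 (4543 ± 381 TPM), the surface glycoprotein gene Cd24 (4054 ± 979.8 TPM) and the ribosomal protein gene Rpl41 (4076 ± 429 TPM). Of these genes S100g had the largest SD relative to its mean. Its level was 13718, 7169, 4110, 6678 and 6083 TPM in rats 1, 2, 5, 6 and 9, highest in rat 1.

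**Figure D3:**
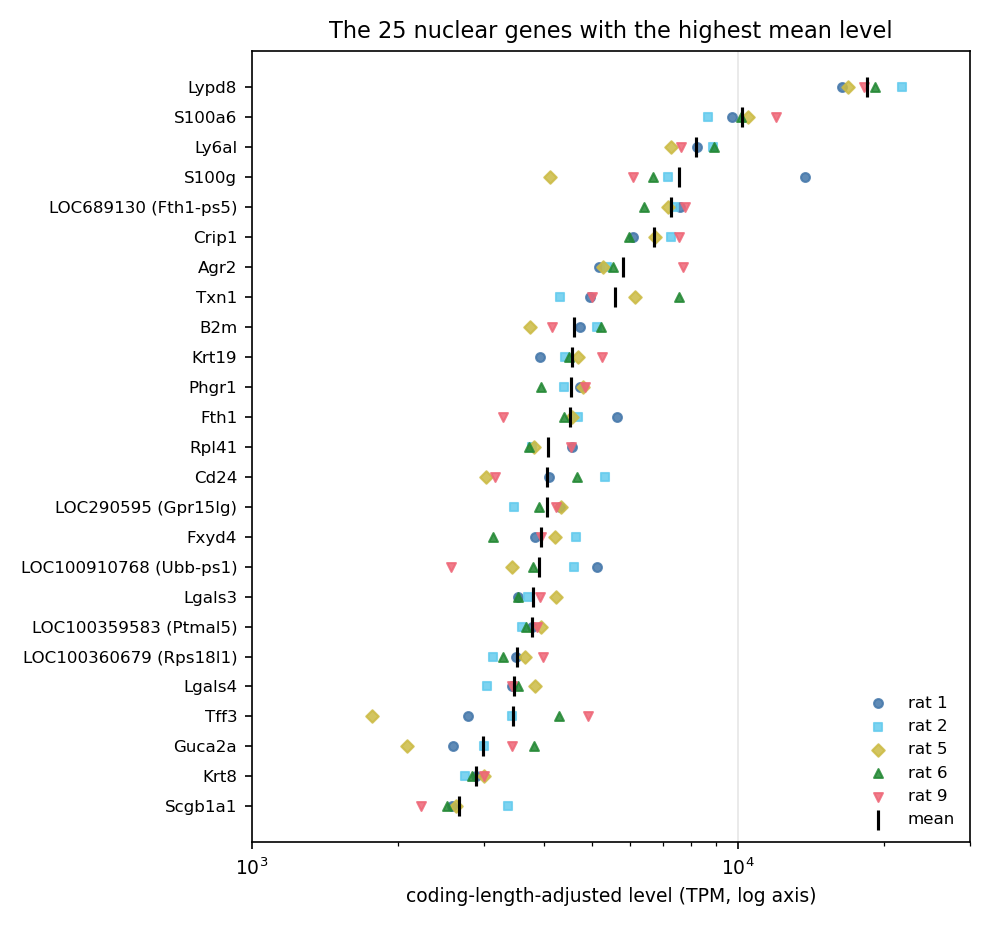
Levels in TPM (log axis) of the 25 nuclear genes with the highest mean, 1 symbol per rat and a vertical tick at the mean. Lypd8 is above every other nuclear gene in all 5 rats, and S100g spreads from 4110 in rat 5 to 13718 in rat 1.

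The rank of a gene depended on the length used. On total exon length Lypd8 was still first in mean level among nuclear genes, Txn1 was second and S100a6 after it. Txn1 has 306 annotated exon bases against 294 coding bases. In 2396 rows the exon length used did not exceed the coding length. Genes with little annotated untranslated sequence rise on this divisor relative to the others. Agr2, with 528 coding and 4871 exon bases, fell from rank 7 to rank 87 (983 ± 158 exon-length TPM). Cd24 fell from rank 14 to 113, Rpl41 from 13 to 75, B2m from 9 to 53, Phgr1 from 11 to 50 and LOC290595 from 15 to 36. Fxyd4, a regulator of the sodium pump, fell from 16 to 94, while 17 of the 25 highest stayed among the 25 highest. Ranking by counts brought long transcripts forward. By mean normalized CPM, Lypd8 was followed among nuclear genes by Pigr, Krt19, Muc2, Krt8, LOC689130 and Lgals4. Muc2, with a coding length of 6768 bases, held 0.46% of counts but reached only 651 ± 364 TPM. S100a6, Crip1 and Txn1, all with short coding sequences, lie in the top 10 nuclear genes by TPM. Crip1 encodes a small LIM domain protein (6733 ± 707 TPM).

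The share of promoters that holds the string TATAA, a spelling of the TATA box, varied along the abundance ranking, which was not tested. Promoters of a few genes picked by name, not by rank, are shown as examples. The string TATAA was searched on the gene's strand, and as TTATA for the other strand, with its first base 40 to 20 bases before the start of the gene, in RefSeq promoters of the newer rat build GRCr8, which cover 300 bases per start and were matched by gene ID. Of the 100 nuclear genes with the highest TPM, 68 had a promoter in the table, and 8 of them (11.8%) held TATAA on the gene's strand. The share was 6.08% in the next 400 genes (20 of 329 with a promoter), 2.29% in the 1500 after those (28 of 1220) and 2.97% of all 27457 genes with a promoter in the table. On the other strand the shares were 0% among the top 100 and 1.73% among all. A match is a description of the letters, not a site. The last 80 bases before the start are printed for the most abundant nuclear gene, for the main mucin, trefoil peptide and keratin 8, and for Epcam, with TATAA in capitals where it lies in that window.
Lypd8 (GRCr8 chr10:43062181-43062260, plus strand): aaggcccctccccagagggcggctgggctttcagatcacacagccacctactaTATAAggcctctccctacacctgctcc
Muc2 (GRCr8 chr1:206228955-206229034, plus strand): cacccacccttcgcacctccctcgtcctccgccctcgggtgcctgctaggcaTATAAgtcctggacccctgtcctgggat
Tff3 (GRCr8 chr20:9199334-9199413, minus strand): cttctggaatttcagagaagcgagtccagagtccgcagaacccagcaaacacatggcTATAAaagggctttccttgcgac
Krt8 (GRCr8 chr7:135010340-135010419, minus strand): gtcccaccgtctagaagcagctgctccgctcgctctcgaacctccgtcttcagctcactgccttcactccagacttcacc
Epcam (GRCr8 chr6:12649679-12649758, minus strand): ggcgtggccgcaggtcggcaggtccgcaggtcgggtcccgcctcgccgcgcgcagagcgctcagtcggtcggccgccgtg
The string began 27 bases before the start in Lypd8, 28 in Muc2 and 23 in Tff3. Muc2 ranked 153 among nuclear genes and so lies outside the top 100. Rplp0 and Cd24 were also among the 8 genes of the top 100 with the string, so the examples do not give its share. Krt8 and Epcam did not hold TATAA in the window, and neither did the claudin gene Cldn7, which is not printed. Cldn7 did hold the letters tatatata there, a related string that the search did not count, so a promoter without TATAA may hold another spelling. Epcam had 40 CG pairs and Cldn7 28 in 300 bases, against 5 in Lypd8, 7 in Muc2, 9 in Tff3 and 10 in Krt8. The median was 10 CG pairs among the top 100 nuclear genes and 21 among the next 400.

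Several of the highest rows carried names of gene copies, which limits what can be said of their genes. LOC689130, named Fth1-ps5 in the newer table, held 7269 ± 530.2 TPM, more than Fth1 itself in all 5 rats. Copies of the ubiquitin gene Ubb held 3963 ± 1012 TPM against 1215 ± 174 on Ubb. Ribosomal protein genes showed this most widely. The rows named by 79 ribosomal protein symbols summed to 19869 ± 1248 TPM, and 86 further rows named as their copies summed to 21065 ± 2151 TPM, so that 51.4% ± 1.65 of the ribosomal protein signal lay on copies. Rps14 stood at 5.14 ± 2.32 TPM and its copy LOC100911847 at 2635 ± 216 TPM, and Rps18 at 21.3 ± 12.9 against 3506 ± 321 TPM for LOC100360679. Of the 79 symbols, 6 had no count at all, including Rpl8, Rpl7a and Rps9. Adding copies to their parents raised the median ribosomal protein level from 44.9 to 113 TPM. The sources used here do not say how reads that match both a gene and its copy were counted, so levels of genes with near-identical copies are uncertain. The reads were also aligned with a program that does not split them over introns. The part of this in the levels of genes and their copies was not tested.

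Gene families were then compared for their main member, that is the member with the highest mean TPM. In the 45 families examined, with 632 members, 294 members reached 1 normalized CPM on average and 145 had no count. The main member exceeded the second in all 5 rats in 27 families, it held over 50% of the family's summed TPM in every rat in 20, and over 90% in every rat in 8. The order of any 2 members is given as the number of rats that show it, because an exact sign-flip permutation test over 5 rats cannot give a two-sided p below 0.0625.

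**Figure D4:**
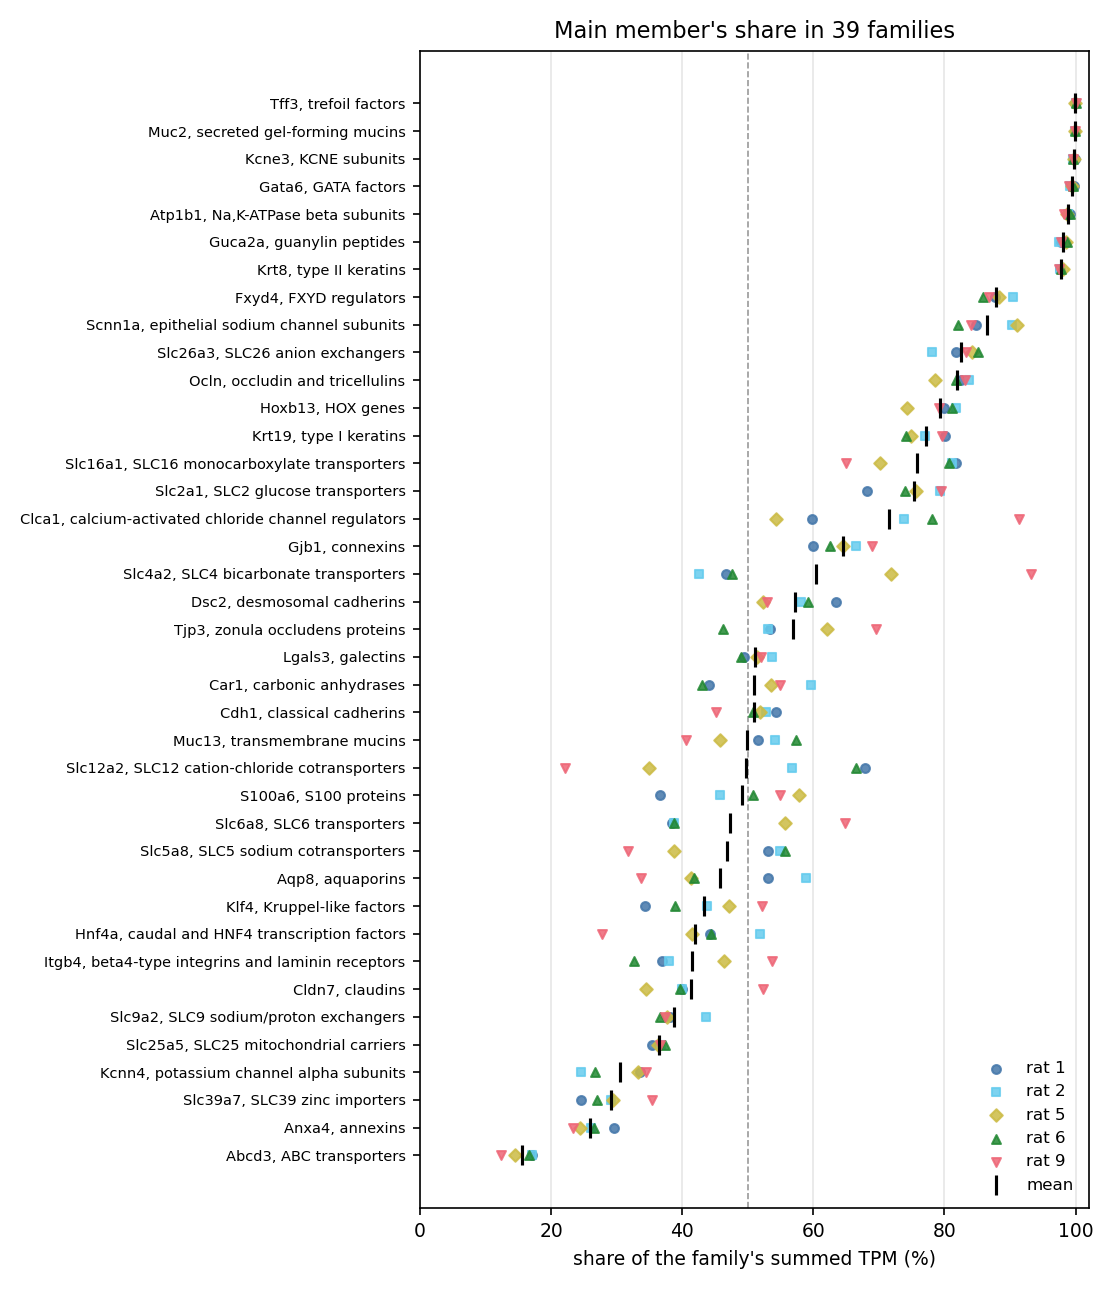
Percentage of each family's summed TPM held by its main member, in the 39 families whose main member is named in the text, 1 symbol per rat, a vertical tick at the mean and a dashed line at 50%. Shares over 90% in every rat belong to 7 of these families, and rats 5 and 9 lie apart from the others in Slc12a2, Slc4a2 and Slc5a8.

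Keratins form filaments from 1 type I and 1 type II chain. Krt19, a type I keratin of simple epithelia, had 3921, 4403, 4687, 4485 and 5262 TPM in rats 1, 2, 5, 6 and 9 (rn6, chromosome 10, 88055843 to 88060560, minus strand) and held 77.2% ± 2.71 of type I keratin TPM. Krt20, a type I keratin of differentiated intestinal cells, ranked next with 712, 1031, 1301, 1307 and 1071 TPM, and Krt18 after it with 254, 272, 264, 252 and 263 TPM. The ranges of the 3 genes did not overlap, Krt19 exceeding Krt20 by 3.43 to 5.50 times. Among type II keratins Krt8, the partner chain of simple epithelia, had 2888, 2742, 3008, 2843 and 3006 TPM (rn6, chromosome 7, 143596511 to 143603745, minus strand) and held 97.8% ± 0.227 of the family, while Krt7 followed with 61.3 ± 6.99 TPM. Krt8 and Krt18 varied little in TPM, with an SD of 113 on a mean of 2898 for Krt8 and of 8.22 on 261 for Krt18. On normalized CPM the SD of log2 values was 0.18 for Krt8 and 0.15 for Krt18. A copy of Krt18, LOC683212, named Krt18l1 in the newer table, had 188.9, 193.8, 191.9, 190.9 and 272.9 TPM, above Krt18 in rat 9. Krt18 with this copy added had 442.8, 466.2, 456.4, 443.1 and 535.5 TPM, still below Krt20 in every rat. Summed type I keratin TPM was 5905 ± 649.8 and summed type II 2964 ± 114. Of 26 type I and 21 type II keratin genes, 11 and 6 had no count, Krt5 and Krt14 among them. The keratins Krt1 (0.0348 TPM) and Krt4 (0.949 TPM) had means under 1 TPM, but Krt4 reached 1.24 TPM in rat 2 and 1.645 in rat 6.

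Secreted mucins were nearly all Muc2. Muc2, the gel-forming mucin of goblet cells, had 352, 389.6, 838, 471 and 1204 TPM in rats 1, 2, 5, 6 and 9 (rn6, chromosome 1, 214663929 to 214693197, plus strand) and held at least 99.88% of gel-forming mucin TPM in every rat. Its level was higher in rats 5 and 9 than in the other 3. Muc5b, the other gel-forming mucin that passed 1 normalized CPM, had 0.335 ± 0.057 TPM. The gastric mucin Muc5ac stood at 0.00466 TPM. Of the transmembrane mucins of the glycocalyx, Muc13 had 654, 666, 566, 787 and 461 TPM and Muc3 577, 532, 647, 531 and 619.6 TPM. On coding length Muc13 was above Muc3 in 3 of 5 rats, with a ratio of 0.744 to 1.48, so neither led in all rats on that divisor. A further row, LOC100912943, is named Muc3a in the newer table and had 68.2 ± 40.9 TPM. With total exon length or with no length adjustment, Muc3 took first place, and Muc13 was above it in 0 of 5 rats. The order of these 2 genes therefore depended on the divisor. Muc1 (29.9 ± 11.02 TPM) and Muc4 (11.2 ± 4.04 TPM) were far lower in all rats.

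Other goblet cell products varied between rats to different degrees. Tff3 had 2781, 3437, 1764, 4294 and 4923 TPM and held at least 99.94% of trefoil factor TPM in every rat, with Tff1 at up to 0.916 TPM. Clca1, a metalloprotease secreted into mucus, had 546, 886, 343, 1517 and 1793 TPM and exceeded Clca4 in 5 of 5 rats by 1.19 to 10.7 times. Zg16, a lectin of mucus, stood at 773 ± 348 TPM, Fcgbp, a mucin-like partner of Muc2, at 165 ± 62.2 TPM, and the sialyltransferase St6galnac1 at 475 ± 88.5 TPM. Tff3 and Clca1 were highest in rats 9 and 6 and lowest in rat 5, an order that differs from that of Muc2, for which rat 5 was second. The 10 listed mucus genes summed to 9258 to 17728 TPM, lowest in rat 5 and highest in rat 9. The goblet cell factors Atoh1 and Spdef stood at 35.3 ± 5.29 and 70.6 ± 20.6 TPM, and Spdef was highest in rat 9.

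**Figure D5:**
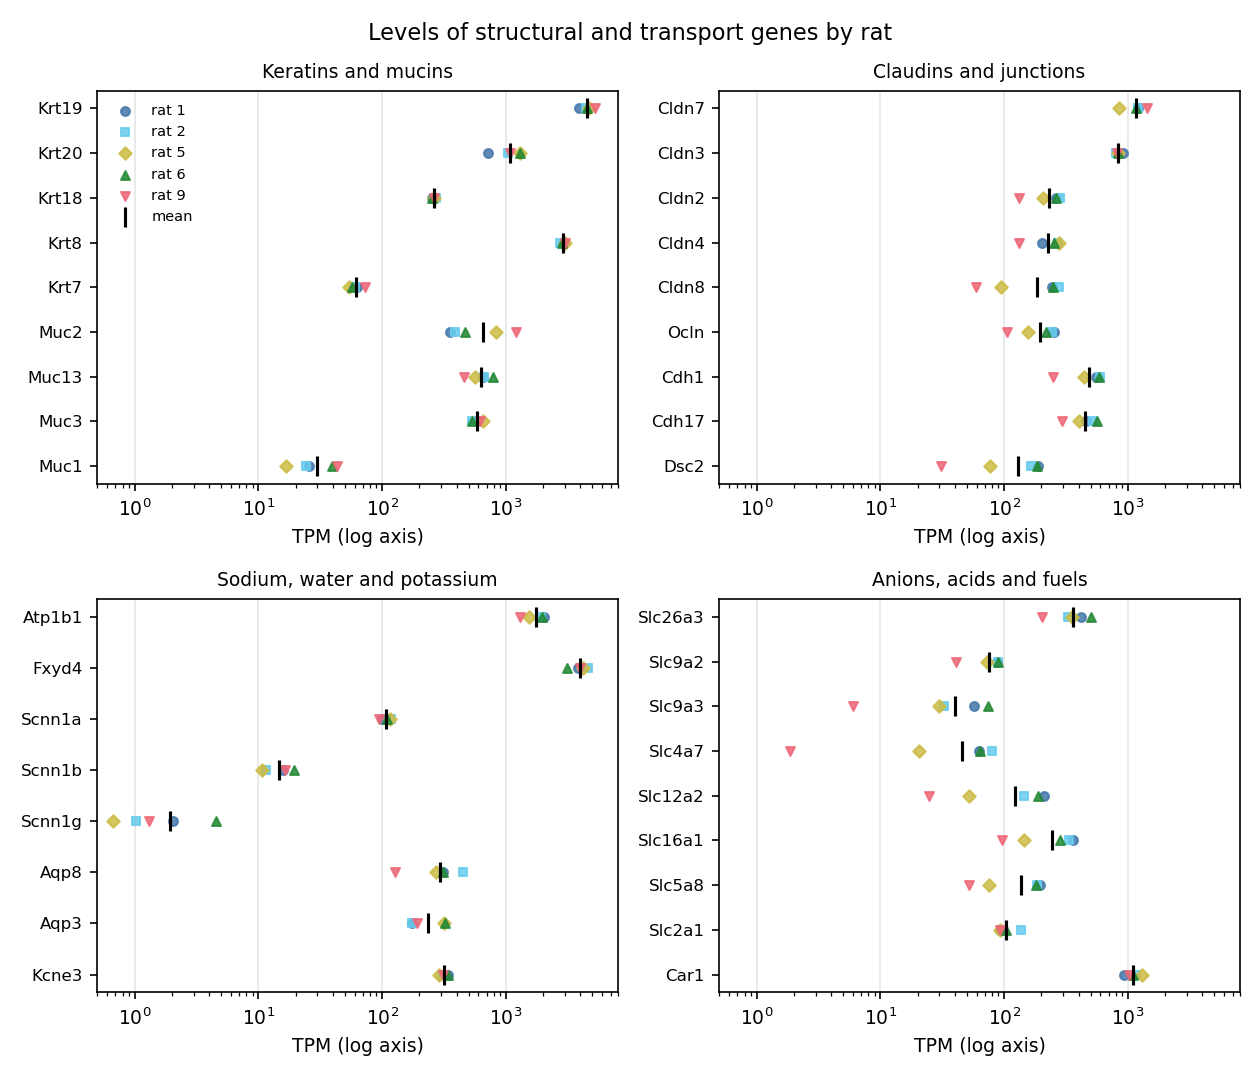
Levels in TPM (log axes) of keratins and mucins, claudins and junction genes, and transport genes, 1 symbol per rat and a vertical tick at the mean. Krt8, Krt18 and Cldn3 cluster tightly, whereas Slc9a3, Slc4a7, Slc12a2, Cldn8 and Dsc2 are lowest in rat 9.

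Claudins set the permeability of the tight junction. Cldn7, a claudin of the lateral membrane, had 1214, 1206, 844, 1169 and 1425 TPM in rats 1, 2, 5, 6 and 9 (rn6, chromosome 10, 56576326 to 56578632, plus strand) and held 41.3% ± 6.64 of claudin TPM. Cldn3, a sealing claudin, had 911, 806, 834, 824 and 810.5 TPM. Cldn7 was above Cldn3 in 5 of 5 rats, but by as little as 1.01 times in rat 5, and the 2 ranges overlapped. Cldn3 had the smallest SD relative to its mean TPM of the claudins named here and lay above Cldn2, a claudin that forms cation pores, by 2.85 to 6.11 times. Cldn2 (229 ± 60.9 TPM), Cldn4 (226 ± 61.4 TPM) and Cldn8 followed and changed places between rats. Cldn8, a sealing claudin of aldosterone-responsive epithelia, had 244, 275, 94.03, 250.2 and 58.8 TPM, low in rats 5 and 9. Cldn23 (90.6 ± 20.3 TPM) and the pore-forming Cldn15 (73.7 ± 13.6 TPM) came next, and 11 of 27 claudins had no count.

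The other junction genes showed a main member of varying weight. Ocln, the tight junction protein occludin, held 82.0% ± 2.05 of its family with 253, 245, 156, 218 and 106 TPM. Of the zonula occludens scaffolds, Tjp3 (86.1 ± 12.3 TPM) exceeded Tjp1 (22.9 ± 9.37 TPM) in 5 of 5 rats. The adherens junction cadherin Cdh1 had 555, 596, 445, 588 and 246 TPM and the intestinal cadherin Cdh17 461, 523, 402, 558 and 294 TPM. Cdh1 was above Cdh17 in 4 of 5 rats, all but rat 9, at 0.839 to 1.204 times, and the ranges overlapped. The desmosomal cadherins Dsc2 (189, 166, 76.8, 186 and 30.8 TPM) and Dsg2 (109, 119, 69.9, 128 and 27.3 TPM) were both lowest in rat 9 and next lowest in rat 5, and Dsc2 was above Dsg2 in 5 of 5 rats. Gjb1, a connexin of gap junctions, held 64.5% ± 3.51 of connexin TPM with 86.6 ± 2.63 TPM. The 15 listed tight junction genes all exceeded 10 TPM on average and summed to 3076 to 3741 TPM. Such a level is common: the chloride channel gene Cftr, at 18.3 TPM, ranked 5737 by mean TPM among the 23422 listed genes. The 11 adherens junction and desmosome genes summed to 1187 to 2449 TPM, lowest in rat 9.

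The sodium pump had 1 strong beta subunit and 1 strong FXYD regulator. Atp1b1, the beta subunit that carries the pump to the membrane, had 2036, 1934, 1523, 1968 and 1291 TPM in rats 1, 2, 5, 6 and 9 and held 98.8% ± 0.359 of beta subunit TPM, with Atp1b3 at 20.1 ± 2.48 TPM. Atp1b1 overlaps the gene Nme7, and the strand setting of the counting was not stated. The same limit holds for S100g, which overlaps Ctps2, and Zbed6, which lies within Zc3h11a. Fxyd4, a small regulator of the pump also known as CHIF and found in colon and kidney, had 3819, 4635, 4197, 3135 and 3942 TPM and held 87.8% ± 1.71 of FXYD TPM. With total exon length in place of coding length its share was 72.4%, and Fxyd3 (528 ± 41.6 TPM) remained second in 5 of 5 rats on coding length. The level of Fxyd4 per coding base exceeded that of Atp1b1 in 5 of 5 rats, but on total exon length it did so in 2 of 5 and on counts without length in 1 of 5.

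The apical route of sodium was unevenly stocked. Scnn1a, the alpha subunit of the epithelial sodium channel, had 99.5, 117, 116, 109.8 and 93.6 TPM and held 86.5% ± 4.01 of the 3 subunits, or 76.8% on total exon length. Scnn1b had 15.7, 11.4, 10.8, 19.4 and 16.5 TPM and Scnn1g 2.04, 1.03, 0.673, 4.58 and 1.31 TPM. The order alpha, beta, gamma held in 5 of 5 rats with no overlap of ranges. Among sodium/proton exchangers Slc9a2 had 86.9, 88.7, 72.7, 89.6 and 40.5 TPM and the apical exchanger Slc9a3 56.9, 32.4, 29.9, 73.7 and 6.03 TPM. Both were lowest in rat 9, and Slc9a2 was above Slc9a3 in 5 of 5 rats although the ranges overlapped. The short-chain fatty acid and lactate carrier Slc5a8, coupled to sodium, had 196, 184, 74.9, 182 and 52.3 TPM and the multivitamin carrier Slc5a6 136, 116, 97.3, 108 and 94.8 TPM. Slc5a8 was first in rats 1, 2 and 6, and Slc5a6 was first in rats 5 and 9.

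Of the anion and acid carriers, Slc26a3 and Slc16a1 led their families in every rat, whereas first place changed between rats in the SLC4 and carbonic anhydrase families. Slc26a3, the apical chloride/bicarbonate exchanger of the colon, had 419.8, 328, 350.1, 503 and 202 TPM (rn6, chromosome 6, 50725085 to 50766306, plus strand) and held 82.5% ± 2.73 of SLC26 TPM, or 91.4% on total exon length. Slc26a2, a sulfate carrier, had 47.9 ± 26.9 TPM and Slc26a6 15.7 ± 5.02 TPM. Slc16a1, the carrier of monocarboxylates such as butyrate and lactate, had 360.4, 334, 146, 284 and 95.8 TPM and held 75.8% ± 7.67 of the 14 SLC16 genes. In the SLC4 family the anion exchanger Slc4a2 was even, with 59.9, 61.5, 63.4, 61.8 and 53.3 TPM, whereas the bicarbonate carrier Slc4a7 had 63.04, 79.1, 20.6, 63.7 and 1.87 TPM. Slc4a7 was above Slc4a2 in rats 1, 2 and 6 and below it in rats 5 and 9, and the mean share of Slc4a2 fell from 60.4% over all 5 rats to 45.6% over rats 1, 2 and 6. On total exon length Slc4a2 was above Slc4a7 in all 5 rats. Carbonic anhydrases were led by the cytosolic forms Car1 (928, 1169, 1308, 1097 and 1022 TPM) and Car2 (800.3, 499, 726, 1117 and 566 TPM), with Car1 above Car2 in 4 of 5 rats, followed by the membrane-bound Car4 (224 ± 45.3 TPM).

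The chloride channel gene Cftr stood low, below Slc26a3 and below Ano1 in 5 of 5 rats. Cftr, the cyclic AMP-gated chloride channel, had 26.5, 20.9, 11.7, 28.4 and 4.16 TPM, and the calcium-gated channel Ano1 109, 119, 76.6, 119 and 43.96 TPM. Slc12a2, the basolateral cotransporter that loads chloride into the cell, had 209, 143, 52.1, 186 and 24.7 TPM. It was high in rats 1, 2 and 6 and low in rats 5 and 9, and its share of SLC12 TPM was 49.7% ± 20.3 over 5 rats and 63.7% over rats 1, 2 and 6. Kcne3, the beta subunit that opens the potassium channel Kcnq1, had 342, 302, 289.5, 340.0 and 309 TPM and held 99.7% ± 0.159 of KCNE TPM. Kcnq1 itself had 44.4 ± 3.18 TPM, below Kcnn4 (83.03 ± 10.1 TPM), the calcium-activated potassium channel, and Kcnk1 (76.2 ± 15.9 TPM). On total exon length Kcnq1 had the highest mean of the 3, and Kcnn4 and Kcnk1 were each above it in 2 of 5 rats. Kcnn4 and Kcnk1 changed places between rats on coding length, Kcnn4 being above Kcnk1 in 3 of 5, and Kcnk1 had the highest mean over rats 1, 2 and 6. Guanylin, the ligand of the receptor guanylate cyclase Gucy2c (119.9 ± 21.4 TPM), came from Guca2a, which held 98.1% ± 0.526 of guanylin peptide TPM, while uroguanylin, Guca2b, had 59.1 ± 19.4 TPM.

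Water channels had 2 strong members. Aqp8, a water channel, had 311, 446, 272, 309.8 and 128 TPM and Aqp3, which also passes glycerol, 175, 176, 315, 319.5 and 192 TPM. Aqp8 led the mean but was above Aqp3 in only 2 of 5 rats, so neither is the main aquaporin in all rats. Atp12a, the colonic H,K-ATPase, had 273 ± 75.2 TPM. Slc2a1, the basolateral glucose transporter of many cells, had 93.2, 136, 93.2, 103 and 93.1 TPM and held 75.3% ± 4.63 of SLC2 TPM. Slc5a1, the sodium-glucose carrier best known from small intestine, had 25.5 ± 8.19 TPM. Of the mitochondrial carriers, the adenine nucleotide carrier Slc25a5 held 36.5% ± 0.753 with 1173, 1224, 1279, 1175 and 1205 TPM, and the phosphate carrier Slc25a3 was second in 5 of 5 rats with 891 ± 82.3 TPM.

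Smaller calcium- and sugar-binding proteins formed families with 2 strong members. Among 14 S100 genes, S100a6 and S100g together made up most of the signal, with S100a6 above S100g in 4 of 5 rats, all but rat 1. S100a10, the partner of annexin A2, had 1211 ± 154 TPM, and S100a16 952 ± 87.3 TPM. Lgals3 was above Lgals4 in 5 of 5 rats, by 1.001 to 1.215 times, and Lgals9 stood at 114 ± 21.4 TPM. Without length adjustment Lgals4 came first. Annexins, which bind membranes in a calcium-dependent way, were spread more evenly: Anxa4 had 495, 463, 439.9, 474 and 382 TPM and held 26.0% ± 2.35 of the family, followed by Anxa8 (356 ± 49.5 TPM), Anxa1 (352 ± 53.95 TPM) and Anxa11 (251 ± 11.99 TPM).

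Nutrient and metal carriers had no single leader in several families. Of 14 SLC39 zinc importers, Slc39a7 had 140.1, 172, 162, 152 and 167 TPM and Slc39a1 166, 147, 122, 159 and 98.4 TPM, and Slc39a7 was first in 3 of 5 rats, while Slc39a1 had the higher mean over rats 1, 2 and 6. Of the SLC6 carriers, the creatine carrier Slc6a8 had 117, 131, 158, 129 and 126 TPM and Slc6a14, a carrier of neutral and cationic amino acids, 141, 166, 87.6, 164 and 45.9 TPM. Slc6a14 was above Slc6a8 in rats 1, 2 and 6 and below it in rats 5 and 9, so the mean alone put Slc6a8 first. The 15 SLC7 amino acid carriers summed to 41.7 ± 5.42 TPM in all. Of 50 ABC transporters, the peroxisomal transporter gene Abcd3 was highest with 84.95 ± 21.8 TPM, 15.5% ± 2.11 of the family, and above the second member, Abcf1, in 4 of 5 rats. The basolateral organic anion exporter Abcc3 had 45.9 ± 6.75 TPM, but on counts without length adjustment it came first, above Abcd3 in every rat.

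The brush border and the contact with the basement membrane completed the structural genes. Cdhr5 (333, 414, 417, 323 and 400.4 TPM) and Cdhr2 (188, 229, 182, 187 and 154 TPM), the protocadherins that link the tips of microvilli, were present with Cdhr5 above Cdhr2 in every rat. Ezr, which ties actin to the membrane, had 345 ± 39.9 TPM, the motor Myo1a 215 ± 27.3 TPM and the bundling protein villin, Vil1, 119 ± 12.3 TPM. All 10 listed brush border genes exceeded 10 TPM on average, a level common among all genes, and they summed to 1451 to 1692 TPM. Itgb4, the hemidesmosome integrin, had 152, 156, 173, 136 and 137 TPM and exceeded Itgb1 (104 ± 21.1 TPM) in 5 of 5 rats, while its partner chain Itga6 had 67.7, 68.5, 43.6, 82.6 and 16.7 TPM, lowest in rat 9.

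Among HOX genes, which mark position along the body axis, 1 member dominated. Hoxb13, the most posterior gene of its cluster, had 868, 839.9, 605, 773 and 776 TPM in rats 1, 2, 5, 6 and 9 and held 79.3% ± 2.95 of HOX TPM. Hoxb9 (74.6 ± 18.8 TPM) and Hoxd13 (56.2 ± 10.5 TPM) followed, and 24 of 41 HOX genes, Hoxa9 among them, had no count. Of all 23422 listed genes, 7124 had none. Hoxa9 is annotated on a scaffold outside the assembled chromosomes, and the part of this in its value was not tested. Elf3, an epithelial ETS factor, was the highest of the listed intestinal factors with 1060, 1108, 1078, 1077 and 1138 TPM. The caudal factors Cdx2 (151 ± 27.3 TPM) and Cdx1 (137 ± 15.4 TPM) stood close to each other, and Hnf4a (247, 265, 221, 279 and 101.5 TPM) was above both in rats 1, 2, 5 and 6 but below both in rat 9. Klf4, a factor of differentiated and goblet cells, exceeded Klf5, a factor of proliferating crypt cells, in 5 of 5 rats (264 ± 51.4 against 176 ± 78.95 TPM), and Gata6 held 99.4% ± 0.302 of GATA TPM.

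The spread between rats was measured on raw counts. The common biological coefficient of variation was 29.5% over 11784 genes with all 5 rats, 21.7% without rat 9 and 15.2% over rats 1, 2 and 6 alone. Among 6741 genes with at least 20 normalized CPM, the median SD of log2 values was 0.25 over 5 rats and 0.12 over rats 1, 2 and 6. Of the 15 most variable genes, 11 were lowest in rat 9, among them Slc4a7, Zbed6 and Pik3c2a.

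Some genes were close to all or nothing between rats. Malrd1, a membrane protein known from the control of the intestinal hormone FGF15/19, had 47.5, 70.6, 57.97, 0.438 and 0.377 normalized CPM in rats 1, 2, 5, 6 and 9 (rn6, chromosome 17, 82430836 to 83156696, plus strand). These values rest on 1363, 1839 and 1551 counts in rats 1, 2 and 5 against 16 and 7 in rats 6 and 9. RGD1562652, named H2-Q7-ps1 in the newer table and thus an MHC class I-like row, had 142, 6.72, 135, 299 and 305 normalized CPM, low in rat 2 alone, and it overlaps RT1-O2-ps. Ifi27, an interferon-inducible gene, had 13.8, 7.87, 160.4, 7.47 and 129 and was high in rats 5 and 9. The resistin-like genes Retnla (8.33, 20.1, 5.64, 31.2 and 243) and Retnlb (7.46, 15.01, 7.96, 19.9 and 142), the latter a goblet cell product, were high in rat 9. Among rats 1, 2 and 6, the collectin gene Sftpd had 758, 189 and 836 normalized CPM and the pentraxin gene Mptx1 248, 2334 and 1277. Sequence differences between these rats were not analysed here.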

How the data were processed

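RNA of distal colon epithelium from 5 control rats was used. Per the labels, poly(A) RNA was made into stranded libraries, and per the submitters' processing notes reads were demultiplexed with bcl2fastq 1.8.4, aligned to rn6 with BWA 0.7.12-r1039, a program that does not split reads over introns, and normalized with edgeR 3.16.2. Not given in the sources used here are the counting program, its strand setting and its treatment of multi-mapping reads. The authors deposited raw counts for each gene and, beside them, a normalized signal (CPM on the TMM-scaled library size). Other deposited columns are lengths and coordinates in bases, and the deposited length equalled the union of coding exons in all 23422 rows. TPM was counts over that length, scaled to 1000000. Whether counts include untranslated regions was not stated, so total exon length served as an alternative.

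Values are mean ± SD over rats, or per rat. Log2 values used a pseudocount of 0.5. Biological variation was estimated with edgeR 4.0.16 in R 4.3.3 (TMM, filterByExpr, intercept only), with DESeq2 1.42.0 size factors as an alternative. Python 3.11.15 did the rest. No comparison between groups was tested.

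Members and lists were chosen with earlier results of these data known. Genes were named by rule: the 25 highest by TPM, the 15 highest by normalized signal, first and second members and members with at least 5% of a family, listed markers and group genes, the 15 most variable genes with at least 20 normalized CPM, and family genes without a count. The text gives a part of them. ND4, ND5, ND6, Sftpd, Mptx1, Scgb1a1, LOC683212, Muc1, Muc4, Lgals9, S100a16, Nme7, LOC100912943 and the ribosomal protein rows were chosen after their values were seen. Newer names came from a RefSeq gene table of GRCr8, which matched 20976 gene IDs.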

Additional observations from a re-analysis of the deposited data

Results flagged for a closer look

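A value was picked out where 1 rat lay far from the other 4, that is where its gap to the nearest rat exceeded 0.71 of the whole range. Of 263 values examined, 23 met this, and 11 of them were in rat 9. The rule's rate of about 1 in 20 by chance alone holds for independent, normally distributed values. The values here were not log-transformed, and some overlap, such as Apoa1 and the list that contains it. The count therefore does not measure an excess over chance. In rat 9 the goblet cell genes Agr2 (7728 TPM against 5172 to 5523 in the others), Retnlb (312 against 20.4 to 52.0) and Spdef (106 against 54.7 to 69.5), and Retnla (625 against 16.9 to 95.4), were high. So were the Krt18 copy LOC683212 (272.9 against 188.9 to 193.8), the immunoglobulin gene Igha (17.8 against 1.40 to 4.77) and the B and plasma cell list (232.8 against 169.8 to 186), of which Xbp1, which goblet cells also express, made up most. Low in rat 9 were Gucy2c (83.2 against 121 to 136), the topoisomerase gene Top2a (19.9 against 39.1 to 46.2), the squamous list (2.41 against 3.12 to 3.41) and the share of counts in pumps, channels and FXYD regulators (1.197% against 1.398 to 1.468%).

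In rat 1 the apolipoprotein gene Apoa1 (203 TPM against 32.1 to 61.9), the small intestinal list that contains it (322 against 98.9 to 143), the steroid exporter gene Slc51a (26.0 against 3.01 to 7.23) and Cldn3 (911 against 806 to 834) were highest, and Anxa1 was lowest (257 against 362 to 392). In rat 2 this held for Slc2a1 (135.8 against 93.1 to 103), ND6 (193 against 86.9 to 114), Cnn1 (0.539 against 0 to 0.0872) and the share of Slc9a2 in its family (43.6% against 36.6 to 38.2%). In rat 5 it held for Tff1 (0.916 against 0 to 0.159), which lowered the share of Tff3 to 99.94%. In rat 6 it held for ND2 (26206 against 10025 to 12436). The causes were not tested.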

How the results depend on the processing

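No paired analysis was possible because a single group was described and no rat number is shared between diets. Leaving out 1 rat at a time gave 33.6 to 35.9% for the top 100 genes' share of counts, 44.0 to 45.6% for their share of TPM, 17.6 to 19.5% for the mitochondrial share of counts, 26 to 29 of 45 families with a main member over 50% and 21.7 to 31.7% for biological variation, lowest without rat 9. Among the alternatives, total exon length moved the most values. It gave 54.0% for the top 100 genes' share of TPM, 98.3% for Krt8, 91.4% for Slc26a3, 72.4% for Fxyd4 and 76.8% for Scnn1a in their families. Without length adjustment Muc2 held 99.9% (99.88) of its family. Without rats 5 and 9, chosen after the data were seen, biological variation was 15.2%, against 29.5% over 5 rats. The main member changed in 5 of 45 families with total exon length, in 5 without length adjustment (Lgals4 then led Lgals3), in 2 with medians over rats, in 6 without rats 5 and 9 and in 0 with copies added to their parents. Of the 15 most variable genes, 13 remained with a pseudocount of 2 and 2 without rats 5 and 9. Library size alone and DESeq2 size factors gave 30.4 and 29.5% for biological variation. Depth limits genes near 0, such as Scnn1g and most markers of other cell types. Length limits comparisons between genes, and the effect on them of alignment without splitting reads over introns was not tested.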

Other observations

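Genes that burn fatty acids were found in all rats. The colonic epithelium is known to use butyrate as its main fuel. All 10 listed genes of mitochondrial ketone and fatty acid metabolism exceeded 10 TPM on average and summed to 2517 to 2954 TPM. The 10 listed housekeeping translation genes also all exceeded 10 TPM on average, so that level does not set these genes apart. The electron transfer flavoprotein gene Etfa, among them, had 440.1 ± 22.2 TPM. Acads, the dehydrogenase of short-chain acyl-CoA, had 265 ± 24.8 TPM and Cpt1a, the gate for long-chain fatty acids, 68.96 ± 23.2 TPM.

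Of enteroendocrine genes, Pyy (134, 156, 125, 139 and 158 TPM) and proglucagon, Gcg (110.1, 137, 105, 139 and 128 TPM), both products of L cells, were highest, and their ranges among the 5 rats overlapped. The row of Insl5, on the same list, had no count, and whether this gene is intact in the rat was not examined. Of tuft cell genes, Sh2d6 was highest at 86.04 ± 34.5 TPM, and Dclk1 stood at 2.58 ± 1.53 TPM. Of crypt genes, the replication clamp Pcna had 186 ± 12.5 TPM and the stem cell receptor Lgr5 2.42 ± 1.34 TPM, whereas Olfm4, a stem cell marker in human colon, had 0.0144 ± 0.0138 TPM, near the floor. Among markers fixed for macrophages, Cd14 had 203 ± 21.2 TPM while C1qa had 8.32 ± 1.75 TPM.

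The balance among mitochondrial genes differed in rat 6. ND2 had 10025, 11478, 11821, 26206 and 12436 TPM, ND1 6049, 6692, 7891, 13334 and 8993 TPM and ATP6 15993, 16216, 19802, 29973 and 26501 TPM in rats 1, 2, 5, 6 and 9, all highest in rat 6. COX3 (42165, 38185, 42204, 26765 and 49266 TPM) and COX2 (22677, 28759, 38017, 19525 and 38383 TPM) were lowest in that rat. The share of counts on all 13 mitochondrial genes was 18.4% in rat 6, within the range of the other rats.

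Scgb1a1, a secretoglobin best known from airway club cells, was number 25 in rank among nuclear genes, with 2579, 3369, 2633, 2521 and 2224 TPM. It overlaps Ahnak, and the strand setting of the counting was not stated.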
